A study of Mus musculus with 6 samples.

Results

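The genes described here handle iron and heme in the cell. They were chosen by name: the uptake genes *Tfrc* and *Slc11a2*, the ferritin subunits *Fth1* and *Ftl1*, the exporter *Slc40a1*, the iron regulatory proteins *Ireb2* and *Aco1*, and the heme oxygenases *Hmox1* and *Hmox2*. Of these 9 genes, 8 were analysed, out of 16244 genes in the expression table. *Slc40a1*, which encodes the iron exporter ferroportin, was not analysed here. RNA-seq was performed on Th17 cells, the CD4+ T helper cells that make IL-17, to ask how a single amino acid change in their defining transcription factor RORγt alters expression. There were 3 WT libraries and 3 RORγtN275D libraries. Naive CD4+ T cells from the spleen of C57BL/6 mice were activated for 3 days with antibodies to CD3 and CD28 under pathogenic Th17 conditions, in which IL-6, IL-1β and IL-23 were present in both genotypes. The sources differ on whether TGF-β was also in that culture. The mutant cells came from knockin mice, which carry N275D in every cell type that expresses RORγt, and the labels do not give their zygosity. Mice in the study were in general 6 to 12 weeks old and of both sexes, by its methods. WT mice were purchased stock, named C57BL/6 in the methods and C57BL/6NJ in the resource list. The methods mention littermate controls, where applicable, for the colitis transfers. Nothing states that the genotypes in the RNA-seq were littermates. The methods describe replicates in general as biologically independent samples, mice or experiments. The labels do not say which of these the 3 libraries of a genotype were. The p-values of single genes thus rest on the spread between these samples, combined with the spread of other genes.

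Most cells take up iron as transferrin bound to the transferrin receptor, move it out of endosomes through the transporter DMT1, and store what they do not use inside ferritin. The iron regulatory proteins IRP1 and IRP2 read the level of free iron. When iron is low they bind short RNA hairpins called iron-responsive elements, which protects the transferrin receptor mRNA from decay and blocks translation of ferritin mRNA. Activated T cells display much transferrin receptor, known as CD71, since dividing cells need iron for DNA synthesis, respiration and heme. These steps are controlled partly at the level of translation and protein turnover, which mRNA measurements do not show.

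The iron-responsive elements found in the measured genes are shown first because IRPs act through them on the transferrin receptor and ferritin transcripts. A search of the GENCODE vM21 transcripts on GRCm38 for the loop CAGTGN, with a last base other than G, an unpaired C and a fully paired stem, found 6 elements in 3 of the 8 genes. *Tfrc* held 4 elements in the 3′ UTR of its last exon within 520 bases, on the plus strand of chromosome 16. They lie at chr16:32631219-32631247, chr16:32631598-32631626, chr16:32631663-32631691 and chr16:32631710-32631738. *Fth1* held 1 in its 5′ UTR at chr19:9982732-9982760 on the plus strand, and *Ftl1* held 1 in its 5′ UTR at chr7:45459779-45459807 on the minus strand. Each is written 5′ to 3′ as DNA, with the loop in capitals.
*Tfrc* element 1: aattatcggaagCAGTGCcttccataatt
*Tfrc* element 2: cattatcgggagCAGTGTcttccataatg
*Tfrc* element 3: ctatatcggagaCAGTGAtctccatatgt
*Tfrc* element 4: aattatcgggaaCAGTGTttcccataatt
*Fth1* element: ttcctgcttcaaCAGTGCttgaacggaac
*Ftl1* element: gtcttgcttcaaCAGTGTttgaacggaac
The *Fth1* and *Ftl1* elements were identical at 26 of 29 positions, whereas the 4 *Tfrc* elements were identical to each other at 16 of 29. By the same search, 0.105% of 21951 protein-coding genes held a match in a 5′ UTR and 0.501% in a 3′ UTR. In the 8 genes, matches that span an exon junction or lack flanking bases were also left out. No match in the other 5 genes says only that this strict search found none. An element with a mismatch or bulge in its stem would be missed, also in *Tfrc*, so the search does not sort the genes by IRP control.

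Of the 8 genes, 3 were called higher and 3 lower. Values are normalized reads, the reads on a gene scaled by 1 factor per library, and a gene was called at an adjusted p under 0.05 in limma on log2(normalized reads + 1). In RORγtN275D cells *Ftl1*, *Ireb2* and *Hmox2* were higher, *Tfrc*, *Slc11a2* and *Aco1* were lower, and *Fth1* and *Hmox1* did not pass the test. Called genes were thus 6 of 8, against 50.9% over the table (24.7% higher and 26.1% lower among 11908 genes). Without WT replicate 3, the library farthest from its group, the same 6 genes were called, against 53.7% of all genes. None of the 8 changed by 2-fold, which 3.59% of all genes did. The genotypes did not overlap in 5 of the 8, against 57.7% of all genes. The median absolute log2 change was 0.21 over the 8 genes and 0.19 over all genes tested, so the size of the changes was near that of the table as a whole. In bulk RNA, a change in the share of cells that express a gene and a change in RNA per cell cannot be told apart.

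**Figure D1:**
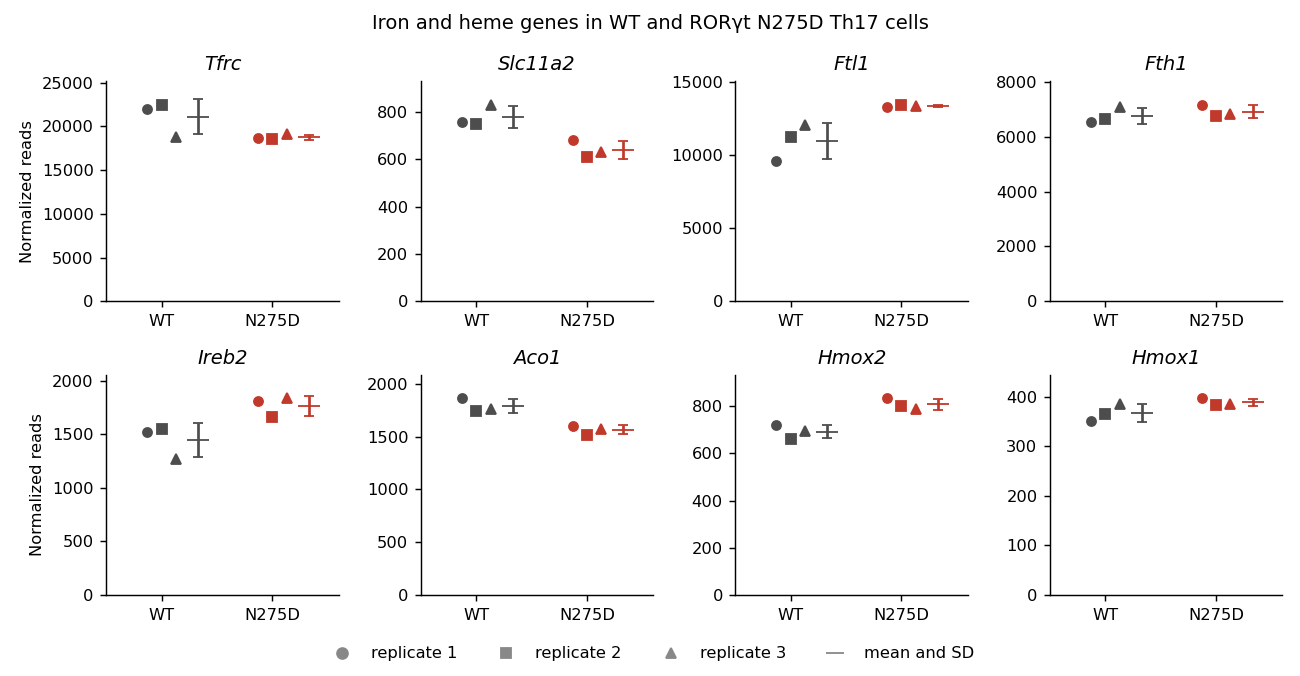
Normalized reads of the 8 genes (y axis, linear from 0) in each of the 3 WT (grey) and 3 RORγtN275D (red) libraries, with a symbol per replicate and the mean ± SD beside them. *Ftl1*, *Ireb2* and *Hmox2* sit higher in all 3 mutant libraries, *Slc11a2* and *Aco1* sit lower in all 3, and for *Tfrc* WT replicate 3 lies among the mutant libraries.

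The libraries held between 17659035 and 18510878 reads on genes. WT replicate 3 stood farthest from its group, with a median absolute log2 gap to the other WT libraries of 0.103, against 0.0557 to 0.0755 in the other 5 libraries, so values without it are given for the 8 genes and, for called genes of the companion lists, where they move by over 1.5 times. Gene totals do not show a point mutation, so the genotype labels could not be checked from them. The Th17 labels were checked against 8 markers, all of which were expressed, and the cytokine *Il17a* was lowest in WT replicate 3, at 27166 normalized reads.

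Iron import begins with *Tfrc*, the transferrin receptor (gene 22042, chr16:32608896-32632794, plus strand). It had 21978, 22472 and 18776 normalized reads in the WT libraries and 18668, 18531 and 19088 in the RORγtN275D libraries. Thus 2 WT libraries were above all mutant libraries, and WT replicate 3 fell within the mutant range. *Tfrc* fell by 10.7% (95% confidence interval -17.1 to -3.75%, limma adjusted p = 0.014). Without WT replicate 3 the log2 change went from -0.16 to -0.24 (limma adjusted p = 2.92e-08), and without WT replicate 1, WT replicate 2 or RORγtN275D replicate 2 it did not pass (limma adjusted p = 0.0722, 0.0733 and 0.0528). The direction of *Tfrc* thus held in each case while its call rested on which libraries entered.

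Because CD71 rises in cells that divide, proliferation genes were read beside *Tfrc*. Of 12 tested, 11 were lower in RORγtN275D, 0 were higher and 1 was not called, with a median log2 change of -0.24. Their summed level was 93691 to 98380 normalized reads in WT and 81871 to 82747 in the mutant. *Mcm5*, a subunit of the replicative helicase, fell by 24.0% (limma adjusted p = 1.96e-07). The part of proliferation in the *Tfrc* difference was not tested.

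*Slc11a2* encodes DMT1, which carries ferrous iron out of the endosome (gene 18174, chr15:100387898-100424209, minus strand). It had 756, 748 and 830.0 normalized reads in WT and 682, 607 and 632 in RORγtN275D. All mutant libraries were below all WT libraries. The log2 change was -0.28 ± 0.06 (SE, limma adjusted p = 0.00115), a decrease of about the same size without WT replicate 3 (log2 change -0.23). The 2 uptake genes among those chosen by name were therefore both lower in the mean, *Tfrc* with and *Slc11a2* without overlap between the genotypes. Of these 2, the call of *Tfrc* rested on which libraries entered.

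Ferritin is a cage of heavy and light chains. *Ftl1*, the light chain that aids mineral formation in the core (gene 14325, chr7:45457944-45459886, minus strand), had 9583, 11185 and 12056 normalized reads in WT and 13253, 13422 and 13345 in RORγtN275D. All mutant libraries were above all WT libraries, and the WT libraries spread more widely (SD 1254 against 84.3). The log2 change was 0.29 ± 0.06 (SE, limma adjusted p = 0.000538), and 0.37 without WT replicate 3. Without WT replicate 1, the lowest of the WT libraries, it was 0.20 (limma adjusted p = 0.00104). *Ftl1* has processed copies elsewhere in the genome, among them *Ftl1-ps2* with 9.97 normalized reads in WT and 19.3 in the mutant, so some of its reads may be assigned either way.

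*Fth1*, the heavy chain that oxidizes iron as it enters the cage (gene 14319, chr19:9980600-9985111, plus strand), had 6539, 6651 and 7085 normalized reads in WT and 7174, 6749 and 6823 in RORγtN275D. The genotypes overlapped. The log2 difference was 0.03 (95% confidence interval -0.05 to 0.12, limma adjusted p = 0.502), an interval that leaves room for an increase of up to 8.45%. Without WT replicate 3 it was 0.07 (95% confidence interval 0.0031 to 0.13, limma adjusted p = 0.0715). Within each library the ratio of *Ftl1* to *Fth1* was 1.47, 1.68 and 1.70 in WT and 1.85, 1.99 and 1.96 in RORγtN275D, with no overlap. With 3 against 3 libraries the exact permutation test cannot go below p = 0.1, which this ratio reached (adjusted p = 0.2 over the 4 ratios computed). The call for *Ftl1* and the lack of one for *Fth1* do not by themselves show that the 2 changed differently. The exact permutation test cannot decide this at 0.05, although the ratio was higher in all 3 mutant libraries.

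The ratio of *Fth1* to *Tfrc* sets the ferritin heavy chain alone against the receptor. It was 0.298, 0.296 and 0.377 in WT and 0.384, 0.364 and 0.357 in RORγtN275D, and WT replicate 3 lay among the mutant libraries (exact permutation p = 0.3). The mean was 0.324 in WT and 0.369 in the mutant. This difference did not exceed the spread between replicates by that test. The result does not cover *Ftl1*, the ferritin chain called higher, whose ratio to *Tfrc* was not computed.

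The RNA-binding sensors moved in opposite directions. *Ireb2* encodes IRP2, which is degraded when iron is ample (gene 64602, chr9:54862658-54912534, plus strand), and had 1525, 1550.4 and 1266 normalized reads in WT and 1806, 1656 and 1834 in RORγtN275D. All mutant libraries were higher, with WT replicate 3 the lowest of the 6. The log2 change was 0.29 ± 0.07 (SE, limma adjusted p = 0.0017), and 0.20 without WT replicate 3. *Aco1* encodes IRP1, which acts as a cytosolic aconitase while it holds an iron-sulfur cluster and binds RNA without it (gene 11428, chr4:40143265-40199009, plus strand). It had 1862, 1741 and 1765 normalized reads in WT and 1604, 1519.9 and 1572 in the mutant. All mutant libraries were lower, with a log2 change of -0.19 ± 0.04 (SE, limma adjusted p = 0.00195), and -0.20 without WT replicate 3.

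The ratio of *Ireb2* to *Aco1* within a library does not depend on how libraries are scaled. It was 0.819, 0.890 and 0.717 in WT and 1.13, 1.09 and 1.17 in RORγtN275D. No mutant library reached down to a WT library, and the ratio was 39.9% higher in the mutant (exact permutation p = 0.1, the smallest possible, adjusted p = 0.2). *Aco1* reads thus exceeded *Ireb2* reads in all 3 WT libraries and *Ireb2* reads exceeded *Aco1* reads in all 3 mutant libraries, before any correction for length.

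**Figure D2:**
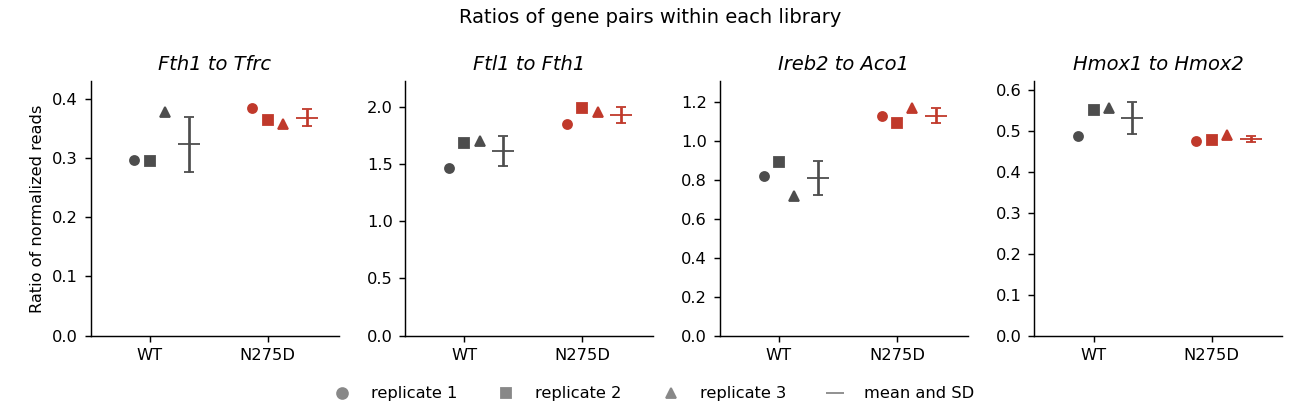
Ratios of normalized reads between gene pairs within each library (y axis, linear from 0), for 3 WT (grey) and 3 RORγtN275D (red) libraries with mean ± SD. *Ireb2* to *Aco1* rises from a mean of 0.809 to 1.13 and *Ftl1* to *Fth1* from 1.62 to 1.93 without overlap, while *Fth1* to *Tfrc* and *Hmox1* to *Hmox2* overlap.

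Heme oxygenases open the heme ring and release iron, carbon monoxide and biliverdin. *Hmox1*, the inducible form (gene 15368, chr8:75093618-75100593, plus strand), had 350.2, 365 and 386 normalized reads in WT and 396, 383 and 385 in RORγtN275D. The genotypes overlapped, and the log2 difference was 0.08 (95% confidence interval -0.06 to 0.22, limma adjusted p = 0.317), or 0.12 without WT replicate 3. *Hmox2*, the constitutive form (gene 15369, chr16:4726361-4766742, plus strand), had 719.6, 662 and 695 normalized reads in WT and 833, 803 and 787 in the mutant. All mutant libraries were above all WT libraries, with a log2 change of 0.22 ± 0.05 (SE, limma adjusted p = 0.00273), and 0.23 without WT replicate 3. The exons of *Hmox2* share 40.2% of their bases with *Cdip1* on the opposite strand, and the strand setting of the counting is not given in the sources used here. *Cdip1* had 505 normalized reads in WT and 550 in the mutant (limma adjusted p = 0.127), so reads from the 2 genes may not be fully separated.

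The ratio of *Hmox1* to *Hmox2* was 0.487, 0.552 and 0.555 in WT and 0.476, 0.478 and 0.489 in RORγtN275D. The highest mutant ratio lay just above the lowest WT ratio (exact permutation p = 0.2, adjusted p = 0.267 over the 4 ratios). The call for *Hmox2* and the lack of one for *Hmox1* therefore do not show that the 2 responded differently.

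**Figure D3:**
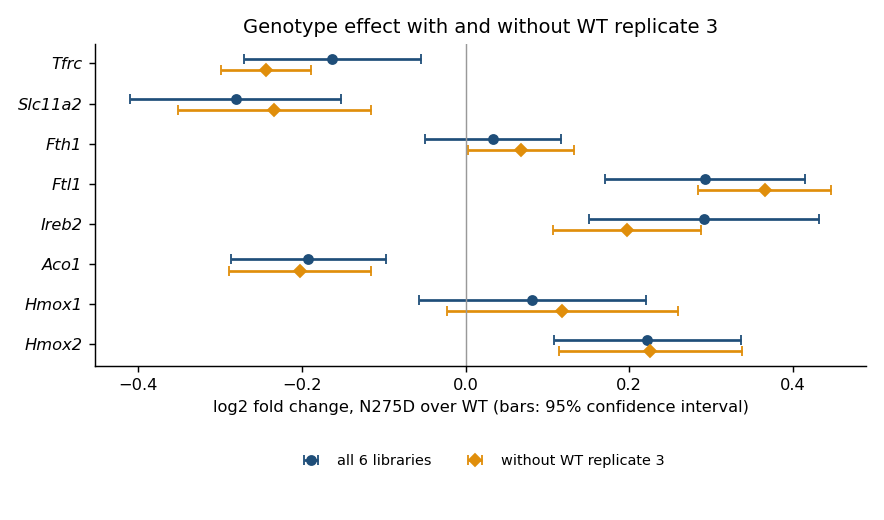
The log2 fold change of each gene in RORγtN275D over WT (x axis) with its 95% confidence interval, from all 6 libraries (blue circles) and without WT replicate 3 (orange diamonds). Leaving the library out moves *Tfrc* from -0.16 to -0.24, *Ftl1* from 0.29 to 0.37 and *Ireb2* from 0.29 to 0.20, and changes no direction.

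To compare levels between genes, normalized reads were divided by the length of the principal GENCODE mRNA, a gene model chosen after the values were seen. Ferritin light chain stood highest, with 11303 ± 1296 normalized reads per kilobase in WT for *Ftl1*, then 7275 ± 310.4 for *Fth1* and 4310 ± 410.3 for *Tfrc* (SD, n = 3). The other 5 genes lay far lower, at 467 for *Aco1*, 400.2 for *Hmox2*, 257 for *Slc11a2*, 251 for *Ireb2* and 234 for *Hmox1*. Among the WT libraries the ranges of *Slc11a2* and *Ireb2* overlapped, as did those of *Ireb2* and *Hmox1*, so these neighbours in the order did not differ beyond their spread. In RORγtN275D the order on the same scale was *Ftl1*, *Fth1*, *Tfrc*, *Hmox2*, *Aco1*, *Ireb2*, *Hmox1* and *Slc11a2*, with no overlap between neighbours. *Slc11a2* stood at 212 ± 12.6 per kilobase there, the last place. Dividing by the length of all annotated exons merged, which is 3469 bases for *Fth1* against 929 in its principal mRNA, placed *Fth1* below *Tfrc* and *Slc11a2* last in both genotypes.

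**Figure D4:**
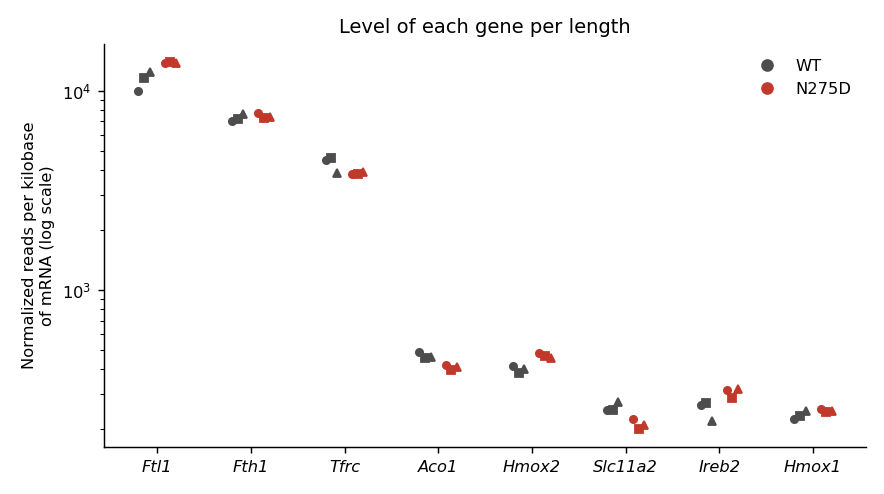
Normalized reads per kilobase of the principal mRNA (y axis, log scale) for each gene in 3 WT (grey) and 3 RORγtN275D (red) libraries, with genes ordered by their WT mean. The lowest library of *Tfrc* stands at 3790 and that of the ferritin chains above it, while the highest of the other 5 genes stands at 486.

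Promoter letters were compared because *Tfrc* is a known target of hypoxia-inducible factors in other cells. RefSeq promoters on GRCm38.p6, from 250 bases before to 50 after each start, were given for 6 of the 8 genes, with 10 promoters in all, and not for *Slc11a2* and *Hmox1*. The core of the hypoxia response element, ACGTG or GCGTG on either strand, was found in 5 promoters of 4 genes, against 43.8% of 32851 promoters in all. *Tfrc* held 3 in each of its 2 promoters. The windows of these promoters overlap, as do 2 windows of *Hmox2*, so a match in shared bases counts in each. The GC box GGGCGG was found in 7 promoters, against 35.7% of all, and TATAAA in that of *Ftl1*, against 8.32%. None held the E-box CACGTG (7.15% of all, a motif that contains the hypoxia core), TGACNNNGC of NRF2 (12.4%), the MAF and BACH1 element (0.155%) or AGGTCA, the core of the ROR response element (16.3%). These matches describe letters in a window and not bound sites.

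The wider iron and heme pathway was read from 8 gene lists. Of 106 genes listed, 88 were tested, and 16 were higher, 27 lower and 45 not called in RORγtN275D, so that 48.9% were called against 50.9% of all genes. Their median log2 change was -0.05, and 2 genes, *Steap4* and *Epas1*, changed by 2-fold, the first of them with a WT mean below the filter. The lists as a whole were therefore called about as often as other genes.

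Among genes of iron import and reduction, 1 of 9 was higher, 3 were lower and 5 were not called. The STEAP reductases, which turn ferric into ferrous iron for DMT1, stood at either end. *Steap3*, the endosomal form, had 62.6, 53.5 and 58.0 normalized reads in WT and 33.9, 35.1 and 26.7 in the mutant, without overlap. *Steap3* fell by 44.5% (limma adjusted p = 0.000558). *Steap4* was low throughout, with a mean of 8.67 in WT and 19.2 in the mutant (log2 change 1.05, limma adjusted p = 0.00663), and it passed the filter of 10 only through its mutant level. *Slc39a14*, a zinc transporter that also carries iron, fell by 0.15 on the log2 scale (limma adjusted p = 0.00556).

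Of 8 iron chaperones and ferritin turnover genes, 0 were higher and 5 were lower. *Pcbp1* and *Pcbp2*, which deliver iron to ferritin, had log2 changes of -0.12 and -0.16 (limma adjusted p = 0.00681 and 0.00069). *Slc25a37*, mitoferrin-1 of the mitochondrial inner membrane, went from 1012 ± 40.0 to 822 ± 43.0 (SD, n = 3, limma adjusted p = 0.000257). Its paralog *Slc25a28* did not pass, with means of 328 and 344 (limma adjusted p = 0.449). *Ncoa4*, the receptor that brings ferritin to lysosomes, had means of 1318 and 1386 and did not pass (limma adjusted p = 0.212). *Pcbp3* was called lower (limma adjusted p = 0.0442).

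Among 5 genes of iron sensing and IRP turnover, 2 were higher and 3 were not called. *Fbxl5*, the iron-binding ubiquitin ligase subunit that targets IRP2 for decay, had 653, 612 and 553 normalized reads in WT and 725, 683 and 698 in the mutant, without overlap. *Fbxl5* was thus higher together with *Ireb2*, with a log2 change of 0.21 (limma adjusted p = 0.0101). *Epas1*, which encodes HIF-2α and whose mRNA is a known IRP target in its 5′ UTR, went from a mean of 20.4 to 57.1 (log2 change 1.45, limma adjusted p = 8.93e-06). Its level was low in both genotypes beside the genes above.

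Iron-sulfur cluster assembly had 3 of 25 genes higher, 8 lower and 14 not called. *Glrx5*, the glutaredoxin that passes clusters on in mitochondria, fell by 20.1% (limma adjusted p = 5.48e-05). *Fdx1*, a ferredoxin, was 34.3% higher (limma adjusted p = 0.00014), and the cochaperone *Hscb* was 21.4% higher (limma adjusted p = 0.0329).

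Heme synthesis was mixed, with 3 of 13 genes higher, 3 lower and 7 not called. *Alas1*, the first and rate-limiting enzyme outside erythroid cells, had 878, 883 and 940.0 normalized reads in WT and 1018, 962 and 978 in the mutant, a log2 change of 0.13 (limma adjusted p = 0.0398). The enzymes *Alad* and *Cpox* had log2 changes of -0.45 and -0.22 (limma adjusted p = 3.33e-05 and 0.000235). *Fech*, which inserts iron into the ring as the last step, had means of 513 and 518 and did not pass (limma adjusted p = 0.868). *Abcb6* and *Clpx* were higher, by 17.5% and 15.2% (limma adjusted p = 0.0152 and 0.0159), with overlap in *Abcb6*. Without WT replicate 3 the log2 change of *Clpx* went from 0.20 to 0.12 (limma adjusted p = 0.0428). Called genes of heme synthesis thus lay on both sides.

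Of 13 genes of heme transport and breakdown products, 1 was higher, 4 were lower and 8 were not called. *Flvcr1*, long described as a heme exporter, went from 1011 ± 80.7 to 868 ± 7.72 (SD, n = 3, limma adjusted p = 0.00493). *Lrp1*, a receptor for heme bound to hemopexin among many ligands, was 30.1% higher (limma adjusted p = 2.02e-06). *Cox10*, which begins the conversion of heme b to heme a, fell by 23.1% (limma adjusted p = 3.2e-05), and *Slc46a1*, a folate transporter that also carries heme, fell by 29.1% from low levels (limma adjusted p = 0.0184). The biliverdin reductases, which act after heme oxygenase, did not pass. *Blvra* had means of 466 and 472 (limma adjusted p = 0.825), and *Blvrb* 23.7 and 33.6 (limma adjusted p = 0.0846).

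Heme is also sensed by transcription factors. Of 7 such regulators and their partners, 3 were higher, 1 was lower and 3 were not called. *Bach1*, the repressor of *Hmox1* that heme releases from DNA, had 83.8, 108 and 103 normalized reads in WT and 109.8, 97.3 and 101 in the mutant, which overlap (limma adjusted p = 0.664). *Nfe2l2*, which encodes the activator NRF2, was 15.5% higher (limma adjusted p = 0.00208). The small MAF partners differed in direction, as *Maff* fell by 27.0% (limma adjusted p = 0.000312) and *Mafg* was 11.8% higher (limma adjusted p = 0.0135). *Bach2*, the paralog expressed in B and T cells, was 6.82% higher (limma adjusted p = 0.0437). B cell markers moved with it: 3 of 4 tested were higher, with *Pax5* the most abundant at means of 67.0 and 91.0, and the fifth, *Ms4a1*, was below the filter and at 0 in 2 WT libraries. Their summed level was 150.4 to 160.1 normalized reads in WT and 214 to 273 in the mutant. Their part in the *Bach2* difference was not tested.

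**Figure D5:**
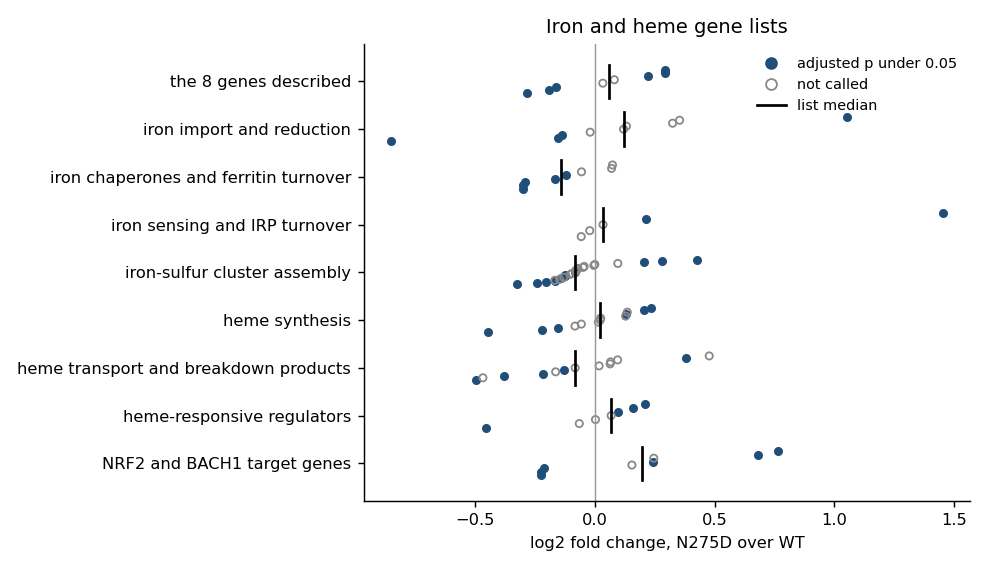
The log2 fold change of each tested gene in RORγtN275D over WT (x axis), by gene list (rows), with called genes filled, genes not called open and the list median as a vertical bar. Called genes lie on both sides of 0 in every list except iron chaperones and ferritin turnover, where 5 are lower, and iron sensing, where 2 are higher.

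Cells that handle much iron could add these transcripts to a Th17 culture, so their markers were read beside the 8 genes. Of 11 erythroid markers, 6 were in the table and 1 passed the filter on low values, *Epor*, with a mean of 36.1 in WT and 63.8 in RORγtN275D (limma adjusted p = 0.0014). The other 5 were lower still: *Klf1* had means of 7.67 and 3.66, the globins *Hba-a1* 3.69 and 5.32 and *Hbb-bt* 0.982 and 0.334, *Epb42* 0.336 in WT and 0 in the mutant, and *Hbb-bs* was at 0 in all WT libraries and in 1 of the mutant. The summed level of the 6 was 38.3 to 59.5 normalized reads in WT and 71.1 to 77.9 in the mutant. Of 12 macrophage markers, 7 were in the table and 3 were tested, with 1 lower, *Adgre1*, which had means of 22.6 and 6.64 (log2 change -1.70, limma adjusted p = 0.000512) and passed the filter only through its WT level. The most abundant was *Cd68*, at means of 50.6 and 63.5, and the summed level was 115 to 123 in WT and 114 to 147 in the mutant. These sums lie below the level of *Hmox1*, the lowest of the 8 genes, in every library. Marker sums do not show how much RNA of the 8 genes such cells would add. The part of such cells in the differences was not tested.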

How the data were processed

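RNA of 3 WT and 3 RORγtN275D Th17 samples was sequenced from polyA-selected directional libraries, per the labels. Per the paper's methods, the authors used STAR on mm10, featureCounts for counting and DESeq2 for the genotypes. Versions are not given in the sources used here. The deposited signal values, called normalized reads here, are the authors' reads per gene times 1 factor per library, and 100% of values were whole multiples of it within 1e-06 in each library. The table also holds the authors' deposited log2 fold changes, q-values and group averages, which were not used.

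Samples were grouped by their labels. On the scale log2(normalized reads + 1), limma 3.58.1 under R 4.3.3 compared the genotypes with its prior following the mean level. The prior had 12.04 degrees of freedom, so the variance of each gene was drawn in large part from other genes. The filter, a mean of 10 or more, left 11908 genes, and p-values were adjusted over all of them by Benjamini-Hochberg. Fold changes on this scale understate the change of low genes. Ratios within libraries were compared by 2-sided exact permutation tests. The members and lists were chosen with earlier results of these data known. Named companion genes were a set of 16 with fixed roles plus, in each list, the called genes with the largest changes, at most 2 in each direction. Some genes that this rule names are not reported here. *Ftl1-ps2*, *Cdip1*, *Ms4a1*, *Adgre1* and the erythroid markers other than *Epor* were named after their values were seen. In data simulated from the real means, limma called 188 of 196 changed genes that passed the filter, and 15 of the unchanged genes among the 11814 run. The share called among changes as small as those of the 8 genes, at most 22.5% in either direction, was not tested separately. Alternatives were pseudocounts of 0.1 and 10, other filters, TMM and quantile scaling, a prior without a trend, a block for replicate number, leaving out single libraries, and count models of the recovered reads in edgeR 4.0.16 and in DESeq2 1.42.0. Depth was 17659035 to 18510878 reads on genes per library.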

Additional observations from a re-analysis of the deposited data

How the results depend on the processing

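The directions of the 8 genes held under all 16 alternatives, but another filter, prior or replicate block cannot alter a log2 change. *Slc11a2*, *Ftl1*, *Ireb2*, *Aco1* and *Hmox2* passed the threshold in all 16. *Tfrc* passed in 12: its log2 change of -0.16 had a limma adjusted p of 0.127 with a prior without a trend, and it lay between -0.24 and -0.11 when each library was left out. *Fth1* passed with quantile scaling (log2 change 0.10, limma adjusted p = 0.0356), and *Hmox1* passed in none. The number of genes changed by 2-fold was 427, and 162 at a minimum mean of 100, 703 with no filter on level and 259 with a pseudocount of 10. Genes that did not pass changed sign: with quantile scaling *Fech* was at -0.0048, *Blvra* at -0.015 and *Bach1* at -0.083, and over the libraries left out *Fech* lay between -0.041 and 0.048, *Blvra* between -0.0017 and 0.039 and *Bach1* between -0.042 and 0.14. The cause was not tested. Same-numbered libraries did not deviate together (r = -0.045, 0.041 and -0.083) and did not each correlate best with their own number. With the replicate number as a block, 5727 genes were called in place of 6056 and the same 6 of 8 genes passed; *Pcbp3*, *Alas1* and *Bach2* did not. Of 46 companion and marker genes under the naming rule, 40 passed, and 28 of these passed in every alternative; *Pcbp3*, *Hscb*, *Alas1* and *Bach2* lost their call under 6 or more. *Hmox1* had the fewest reads of the 8 genes, 347 in its lowest library.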

Other observations

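Transferrin receptor is also read as a T cell activation marker, and the other markers of that kind were called in both directions. Of 6 tested, 3 were higher in RORγtN275D, 1 was lower and 2 were not called. *Il2ra*, the IL-2 receptor alpha chain, had 25938, 26279 and 27352 normalized reads in WT and 32250.1, 32288 and 33130.1 in the mutant, without overlap, and was 22.8% higher (limma adjusted p = 1.61e-06). *Slc3a2*, the CD98 heavy chain, was 36.1% higher (limma adjusted p = 1.91e-07), whereas *Cd69*, an early activation marker, fell by 0.20 on the log2 scale (limma adjusted p = 0.00309).

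Of 8 target genes of NRF2 and BACH1 other than *Hmox1* and the ferritin chains, 3 were higher and 3 were lower. *Srxn1*, sulfiredoxin, was 60.3% higher (limma adjusted p = 9.56e-06), and *Slc7a11*, which imports cystine for glutathione synthesis, was 69.9% higher (limma adjusted p = 0.000309). *Txnrd1*, thioredoxin reductase, and *Prdx1*, a peroxiredoxin, fell by 14.4% and 14.3% (limma adjusted p = 0.000145 and 0.000523).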
